A study of Mus musculus with 7 samples.

Results

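Endothelin signalling was followed in primary mouse embryonic fibroblasts (MEFs) through 5 genes: Ece1, Ece2, Edn1, Ednra and Ednrb. They were chosen by name and found by Ensembl identifier, all 5 of them among the 15531 genes that were tested between the genotypes. RNA came from 7 MEF lines, 4 Df/+Bl6 and 3 +129/+Bl6, all F1 hybrids of 129S5/SvEvBrd and C57BL/6J. Df/+Bl6 lines carry a deletion of 4.3 Mb on their 129S5/SvEvBrd copy of chromosome 4 and an intact C57BL/6J copy, while +129/+Bl6 lines carry both copies intact. The deletion was engineered in 129S5/SvEvBrd ES cells and passed on by chimeric males that also carried the matching duplication (Df/Dp), and every line was grown from the headless body of an embryo of day 13.5 and used at passage 4, 10 hours after confluency. Age and strains are alike in both groups, and the labels give neither the sex nor the litter of a line. Per the study, the controls came from F1 +129/+Bl6 crosses. A difference of sires or litters between the groups cannot be told apart from the genotype.

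Endothelins are small peptides that act on neighbouring cells. They are cut from a longer precursor, first by furin-type proteases and then by the endothelin-converting enzymes, membrane-bound zinc peptidases of the M13 family encoded by Ece1 and Ece2. The product of Edn1 acts through the G protein-coupled receptors of Ednra and Ednrb, which raise intracellular calcium and drive contraction, growth and matrix production in mesenchymal cells. In the embryo, Edn1 with Ednra patterns the jaw arches and great vessels, and Ednrb is needed by the neural crest cells that form melanocytes and enteric neurons. The study names Ece1 as a candidate gene for the human syndrome in which the tip of the short arm of chromosome 1 is missing. It also reports lower Ece1 expression in Df/+Bl6 MEFs, and fewer chromatin contacts of the region with the gene on the deleted chromosome. A positional effect on Ece1 is raised there as speculation that is still to be tested.

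Ece1 (ENSMUSG00000057530) lies on the plus strand of chromosome 4 at 137418152 to 137521144 of NCBI37/mm9. Its longest annotated transcript there, ENSMUST00000102518.3, has 20 exons and 4816 bases. RefSeq (GRCm38.p6) gives Ece1 4 transcription starts, and the enzyme is known in forms that differ in their amino-terminal tails. The starts are shown because the value of the gene below does not tell them apart. Start 2 lies 43 bases after start 1, and starts 3 and 4 lie 51.3 and 58.6 kb after it, inside the gene. Each sequence below reads towards its start on the plus strand, cut before any exon annotated in NCBI37/mm9, with CCAAT boxes (CCAAT or ATTGG) and GC boxes (GGGCGG or CCGCCC) in capitals. Start 1 is shown from 137861987 to 137862236, start 3 from 137913308 to 137913470 and start 4 from 137920543 to 137920762, all on chromosome 4 of GRCm38.p6.
Start 1: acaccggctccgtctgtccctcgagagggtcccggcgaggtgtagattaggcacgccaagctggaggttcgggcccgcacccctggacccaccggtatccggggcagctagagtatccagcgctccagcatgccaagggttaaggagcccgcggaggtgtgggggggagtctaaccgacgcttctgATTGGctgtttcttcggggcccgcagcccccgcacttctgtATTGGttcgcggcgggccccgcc
Start 3: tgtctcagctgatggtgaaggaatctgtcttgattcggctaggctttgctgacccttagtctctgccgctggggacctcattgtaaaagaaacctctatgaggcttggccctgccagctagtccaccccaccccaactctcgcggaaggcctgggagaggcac
Start 4: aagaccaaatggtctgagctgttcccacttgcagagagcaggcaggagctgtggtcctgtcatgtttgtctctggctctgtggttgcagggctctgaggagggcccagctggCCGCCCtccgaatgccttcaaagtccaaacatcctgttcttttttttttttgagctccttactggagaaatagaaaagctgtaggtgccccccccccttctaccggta

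The 4 starts differed in base composition. Over the 250 bases before it, start 1 held 66.8% G and C and 22 CpG pairs and start 2, in an overlapping window, 69.2% and 23, against 63.6% and 14 at start 3 and 53.2% and 5 at start 4. The median of 32817 RefSeq windows of that length was 52.4% and 6 CpG pairs, and 85.8% of windows had a lower share of G and C than start 1 and 52.6% a lower share than start 4. A CCAAT box occurred 2 times before start 1, whose window overlaps that of start 2, and in 33.8% of all windows, searched on both strands. A GC box was found in 32.7% of all windows, and, of the 4 starts, before starts 2 and 4. None of the 4 windows held the letters TATAAA on either strand, which 12.4% of all windows did. Exact matching to NCBI37/mm9 put start 1 at 137418152, the first base of the longest transcript. Of the exonic bases of that transcript, 93.4% lie after start 4, in 17 of its 20 exons, so reads from most of its length cannot be given to one start. The authors counted on the longest transcript of each gene, and no value per start was analysed here.

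Expression of Ece1 was lower in Df/+Bl6 MEFs. The authors' mean normalized count (reads per gene divided by a size factor for each library, averaged over the lines of a genotype) was 23373 in the 4 Df/+Bl6 lines and 40056 in the 3 +129/+Bl6 lines. This is a log2 ratio of -0.78 for Df/+Bl6 over +129/+Bl6, or 41.6% less Ece1 RNA with the deletion. The gene is on the authors' list of genes past their FDR limit of 0.05 (DESeq) for reads summed over both alleles. A lower mean in a bulk culture can come from fewer cells that express a gene or from less RNA per cell, and these cannot be told apart. The values of single lines were not used, for reasons given with the methods, so no SD can be set beside these means and whether the lines overlap between the genotypes was not examined.

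Of the 15531 genes tested, 8.67% were listed, 5.13% as higher in Df/+Bl6 and 3.54% as lower. Among the 5 endothelin genes, 1 was listed as lower, Ece1, and none as higher. Edn1 (ligand), Ednra and Ednrb (receptors) and Ece2 (the second converting enzyme) were all tested and not listed. They have no value in the tables of means, so their levels are not given here, and a gene that missed the list is not shown to be equal in the genotypes. The listed genes show what size of change reached the list. The smallest log2 ratio, by size, was 0.70 among 144 listed genes with a mean under 500, 0.50 among 757 with a mean from 500 up to 5000 and 0.42 among 445 with a mean of 5000 or more. No gene with a smaller ratio than these was listed at the level in question. This sets no bound for the other endothelin genes, since their levels are not given. A gene whose lines vary more can also miss the list with a larger change.

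In the annotation of NCBI37/mm9 the other endothelin genes are spread over chromosomes 16, 13, 8 and 14. Ece2 (ENSMUSG00000022842) spans 20611666 to 20646558 of chromosome 16 on the plus strand and overlaps Camk2n2 on the other strand, which was tested and not listed. Edn1 (ENSMUSG00000021367) spans 42396639 to 42403358 of chromosome 13 on the plus strand. The receptor genes lie on minus strands, Ednra (ENSMUSG00000031616) at 80186930 to 80248363 of chromosome 8 and Ednrb (ENSMUSG00000022122) at 104213842 to 104243390 of chromosome 14. Ece1 is the single one of the 5 on the chromosome that carries the deletion. It overlaps 2 short annotated genes on the other strand, neither of which was tested.

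Ece1 was an abundant transcript with a fall of ordinary size. By its mean over the 7 lines, 30523, it ranked 64 among the 1346 listed genes, whose median was 2955. By the size of the fall it ranked 297 among the 550 genes listed as lower, whose median log2 ratio was -0.81, so 296 genes fell by more and 253 by less. Among the 49 of these with a mean at least that of Ece1, it ranked 18. In the plot of level against ratio, the cloud of listed genes narrows towards high means, and Ece1 sits in the lower branch among the genes with high means.

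**Figure D1:**
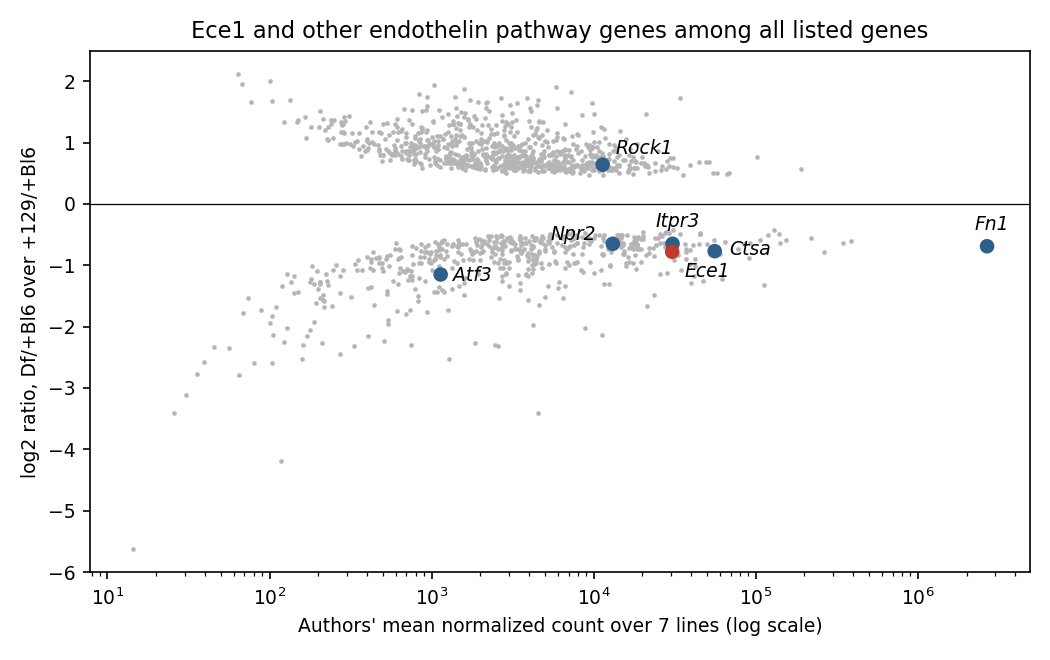
Authors' mean normalized count over the 7 lines (x axis, log scale) against the log2 ratio of Df/+Bl6 over +129/+Bl6 (y axis) for the 1346 listed genes in grey, with Ece1 in red and the other listed endothelin pathway genes in blue. Ece1 lies at a mean of 30523 and a log2 ratio of -0.78, and Rock1 is the blue point above the line at 0.

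The tables for single alleles do not hold Ece1. Reads were assigned to the 129S5/SvEvBrd or C57BL/6J allele by the strain transcriptome they matched, and the lists of alleles past the FDR limit have 257 and 326 genes. Of the 550 genes that were lower in the summed comparison, 404 (73.5%) are in neither allelic list, and 34 of the 49 with a mean at least that of Ece1 are missing as well. The number of genes tested per allele is not given in the sources used here. Whether the fall of Ece1 came from the 129S5/SvEvBrd copy, which lies on the chromosome with the deletion, or from both copies was therefore not examined.

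Ece1 lies outside the deletion, 12.5 Mb before the end of Rere. Rere and Ski are the genes taken here to bracket the deletion, and the exact breakpoints were not used. Both copies of Ece1 are present in Df/+Bl6 lines. Between Rere and Ski, 27 of 42 tested genes were listed, all lower, with a median log2 ratio of -1.02. Of these 27 genes, 25 fell by more than Ece1 and 2 by less. The interval also holds Mmel1, a relative of Ece1 in the M13 family, which was tested and not listed.

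The genes around Ece1 were examined in a window that reached 1 Mb to either side of it. Of 22 tested genes there, 4 were listed (18.2%), and all 4 were lower in Df/+Bl6. Over all genes tested, 8.67% were listed and 3.54% were lower. The window holds few genes, and no test of it was run. Nearest is Alpl, the tissue-nonspecific alkaline phosphatase of bone-forming cells, 65.9 kb before Ece1, with means of 164 in Df/+Bl6 and 734 in +129/+Bl6 (log2 ratio -2.16). After Ece1 come Pink1, a kinase of mitochondrial quality control (2507 and 4525, log2 ratio -0.85), and Cda, a cytidine deaminase (44.3 and 147, log2 ratio -1.73). Pla2g2e, a secreted phospholipase, lies 913 kb after Ece1 (34.0 and 116, log2 ratio -1.77). All 4 fell by more than Ece1, while Alpl, Cda and Pla2g2e had low means in both genotypes. The gene that follows Ece1 directly, Eif4g3, a translation initiation factor 27.8 kb away, was tested and not listed. Before Ece1, the same holds for Hspg2, which encodes the basement membrane proteoglycan perlecan, for the small GTPase gene Cdc42 and for the signal gene Wnt4.

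Most listed genes between Ece1 and the deletion were lower. Between the end of Ece1 and the end of Rere, 125 genes were tested and 13 listed (10.4%, against 8.67% of all genes tested). Of the 13, 12 were lower and 1 was higher in Df/+Bl6. By comparison, lower genes made up 550 of the 1346 listed genes in the whole set. Ece1 was exceeded in its fall by 9 of the 13, led by Angptl7, a secreted angiopoietin-like factor, at 894 against 9466 (log2 ratio -3.40). Dhrs3, a retinaldehyde reductase, gave -1.16 and the small heat shock gene Hspb7 -0.88 on the same scale. The single gene that rose was Tardbp, which encodes the RNA-binding protein TDP-43, at 24847 against 16223 (log2 ratio 0.62). No test of this stretch was run.

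**Figure D2:**
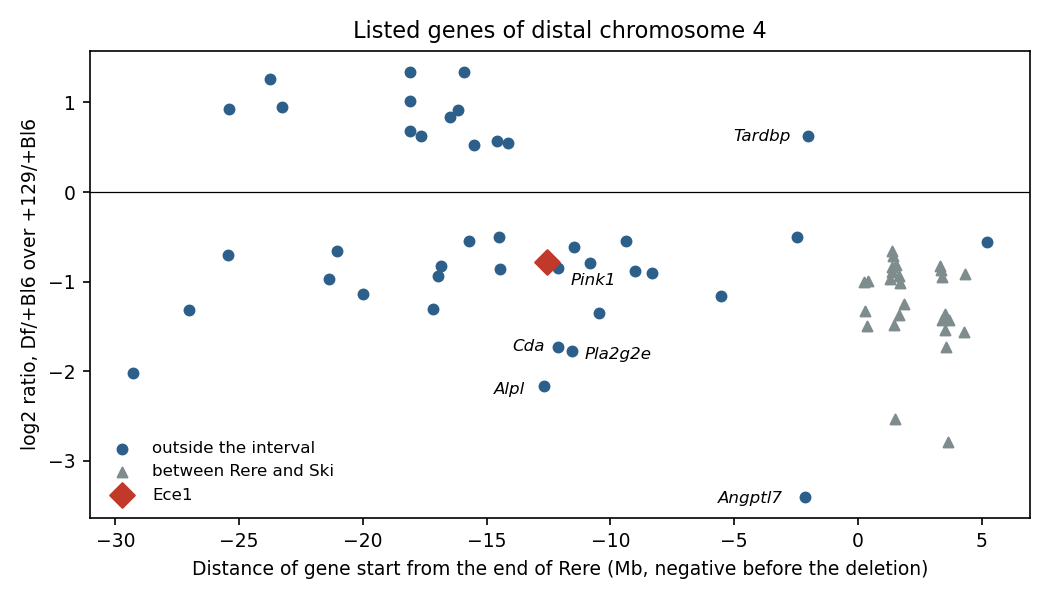
Log2 ratio of Df/+Bl6 over +129/+Bl6 (y axis) of the listed genes of chromosome 4 nearest to the deletion against the distance of the gene start from the end of Rere in Mb (x axis). Ece1 is the red diamond, blue circles are other genes outside the interval and grey triangles are the 27 listed genes between Rere and Ski. In the stretch after Ece1 and before the deletion, 12 genes lie below 0 and Tardbp above it.

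Beyond the 5 genes, 11 lists covering 100 genes of endothelin processing, signalling and response were examined, of which 92 were tested. On them, 7 genes were listed (7.61%, against 8.67% of all genes tested), with 6 lower and 1 higher in Df/+Bl6. The median log2 ratio of the 6 was -0.73, against -0.81 over all genes listed as lower. The share listed in either direction was near that of all genes. The share listed as lower was 6.52%, against 3.54% of all genes tested. No test was run on the lists, and Ece1 itself is on them.

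Among the peptidases, the M13 list had 5 tested genes, Ece1, Ece2, Mme (neprilysin, which degrades endothelins), Mmel1 and Phex, and Ece1 was the single one listed. That is 20.0% of a list of 5 genes, against 8.67% of all genes tested. Ecel1 and Kel were not among the genes tested, nor were the ligand genes Edn2 and Edn3. In the list of precursor processing and peptide breakdown, Furin, Pcsk5, Pcsk6 and Pcsk7 were tested and not listed, and Cma1 was not tested. Ctsa was lower in Df/+Bl6, as 1 of 5 tested genes of that list (20.0%, against 8.67% of all genes tested). This gene encodes cathepsin A, a lysosomal carboxypeptidase able to inactivate endothelin peptides. Its mean was 42905 in Df/+Bl6 and 73109 in +129/+Bl6, a log2 ratio of -0.77 beside the -0.78 of Ece1.

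In the signalling chain below the receptors, 1 of 18 tested genes of G proteins, phospholipase C and calcium release was listed. This is 5.56%, against 8.67% of all genes tested. Itpr3, an inositol trisphosphate receptor that releases calcium from the endoplasmic reticulum, had a mean of 24685 in Df/+Bl6 and 38707 in +129/+Bl6 (log2 ratio -0.65). Its fall was also present on both alleles, with means of 1433 and 2294 and a log2 ratio of -0.68 for 129S5/SvEvBrd. For C57BL/6J they were 2493 and 4036 (log2 ratio -0.69). Gnaq, Gna11 and Plcb1 to Plcb4, which link the receptors to calcium, were tested and not listed. None of the 10 tested genes of receptor desensitization, the arrestins, receptor kinases and RGS proteins, was listed.

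Of 12 tested genes of the kinase relay to ERK and the actin cytoskeleton, Rock1 was listed, and it was higher in Df/+Bl6. The share listed was 8.33%, against 8.67% of all genes tested. Rock1 encodes a kinase that drives actomyosin contraction, and its mean was 13444 in Df/+Bl6 and 8603 in +129/+Bl6 (log2 ratio 0.64). The rise appeared on the 129S5/SvEvBrd allele, from 534 to 895 (log2 ratio 0.75), and on the C57BL/6J allele, from 987 to 1582 (log2 ratio 0.68). Each table was normalized on its own, so ratios and not levels are compared between them.

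Among genes that respond to endothelin, 1 or none was listed on each list, where 8.67% of all genes tested were. Of 13 tested immediate response genes (7.69% listed), Atf3, a stress-induced transcription factor, was listed, with 748 in Df/+Bl6 and 1659 in +129/+Bl6 (log2 ratio -1.15). Fos, Jun, Egr1 and Myc were not listed. Of 9 tested fibrosis genes that endothelin can induce (11.1% listed), Fn1, the fibronectin gene, was listed, at 2121647 against 3418220.3 (log2 ratio -0.69), while Ctgf, Acta2 and the collagen genes Col1a1, Col1a2 and Col3a1 were not. None of the 8 tested genes that depend on Edn1 and Ednra in the jaw arches, among them Hand2, Dlx5 and Dlx6, was listed. Of 9 tested genes of natriuretic peptide and nitric oxide signalling, which counteract endothelin in vessels, Npr2 was listed (11.1%). This receptor of C-type natriuretic peptide lies on chromosome 4 and had means of 10546 and 16588 (log2 ratio -0.65). Its C57BL/6J allele was listed at 793 and 1278 (log2 ratio -0.69).

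**Figure D3:**
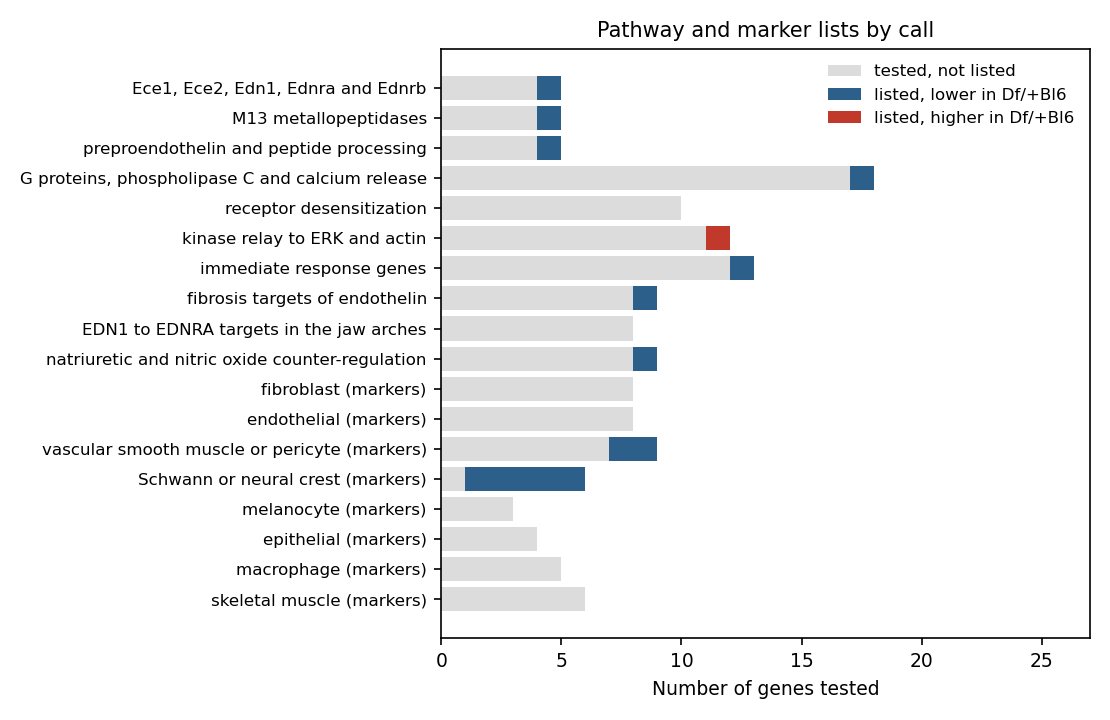
Number of genes tested (x axis) in each pathway and marker list that had any, split into genes not listed (grey), listed as lower in Df/+Bl6 (blue) and listed as higher (red). The Schwann or neural crest markers stand out with 5 of 6 genes listed as lower, while no pathway list has more than 1 listed gene.

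Per kb of the longest transcript annotated in NCBI37/mm9, Ece1 had a level of 4853 in Df/+Bl6 and 8317 in +129/+Bl6. Among the listed pathway genes, Fn1 and Ctsa stood above it in both genotypes, with 411239 and 19899 per kb in +129/+Bl6. Npr2 (4532), Itpr3 (4306), Rock1 (1391) and Atf3 (836) stood below it on the same scale in +129/+Bl6. The order of these 7 genes was the same in Df/+Bl6, where Npr2 had 2882 per kb, Itpr3 2746 and Rock1 2173. The spread over lines is not known, so whether neighbours in this order differ beyond it was not examined.

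Markers of cell types that a MEF culture can hold were looked up in the same way. Over all genes tested, 8.67% were listed and 3.54% were lower. All 8 fibroblast markers, among them Col1a1, Dcn and Pdgfra, were tested, and none was listed. None of 8 tested endothelial markers, such as Pecam1 and Cdh5, was listed, although endothelium is a main source of endothelin in the body. Of 9 tested markers of vascular smooth muscle or pericytes, Notch3 (2741 in Df/+Bl6 and 6013 in +129/+Bl6, log2 ratio -1.13) and Cspg4 (27161 and 50232, log2 ratio -0.89) were lower. These 2 genes are 22.2% of that list. Acta2, Tagln, Myh11 and Pdgfrb were not listed. None of 4 tested epithelial, 5 macrophage, 6 skeletal muscle and 3 melanocyte markers was listed. The epithelial genes tested were Krt8, Krt18, Cdh1 and Cldn4. Other epithelial genes were not looked up as a list. Among the genes listed as lower were Dsp (log2 ratio -1.09), Itgb4 (-1.80), Lama3 (-1.64) and Lamb3 (-1.30). The 4 markers tested therefore do not stand for epithelial genes in general. Lists this short do not show whether their share of listed genes differs from that of all genes. Nor do they show that the share of a cell type is equal in the genotypes.

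Most of the Schwann cell and neural crest markers had lower means in Df/+Bl6. Of 6 tested, 5 were listed as lower, against 3.54% of all genes tested, with a median log2 ratio of -1.54. This list was chosen with earlier results of these data known, and no test was run on it. Ngfr, a neurotrophin receptor, had means of 443 in Df/+Bl6 and 1334 in +129/+Bl6, and S100b, a calcium-binding protein of glia, had 123 and 615. The crest transcription factor gene Sox10 gave 113 and 326, and Foxd3 40.3 and 118. Erbb3, a neuregulin receptor of glial cells, had 132 and 282. Summed over the 5 genes, the means were 852 in Df/+Bl6 and 2674 in +129/+Bl6. The remaining marker, Cdh19, was tested and not listed. The part of these cells in the lower count of Ece1 was not tested.

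**Figure D4:**
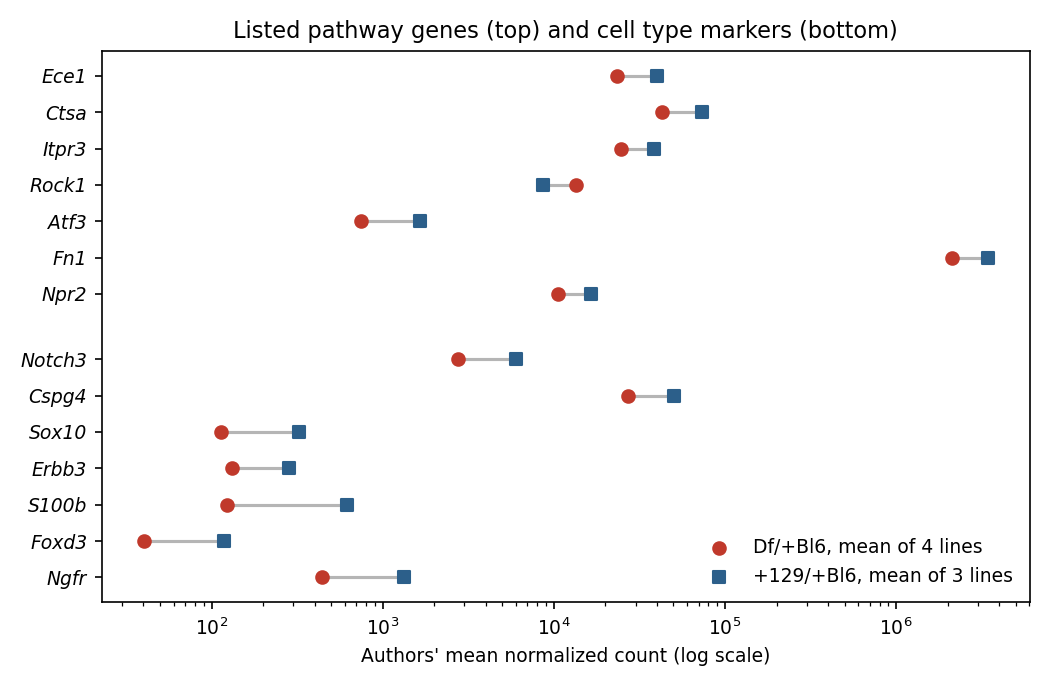
Authors' mean normalized counts (x axis, log scale) in Df/+Bl6 (red circles, 4 lines) and +129/+Bl6 (blue squares, 3 lines) for the listed endothelin pathway genes and, below the gap, the listed cell type markers. A grey line joins the means of a gene. Every gene except Rock1 is lower in Df/+Bl6, and the Schwann or neural crest markers from Sox10 to Ngfr have means between 40.3 and 1334. Means of different genes are not scaled for length.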

How the data were processed

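PolyA+ RNA of 4 Df/+Bl6 and 3 +129/+Bl6 primary lines had been sequenced as stranded, paired libraries. Per the submitters' notes and the study's methods, the authors used GSNAP on C57BL/6J transcripts (GRCm38/mm10) and their 129S5/SvEvBrd counterparts, counted reads on each gene's longest transcript, left out genes with few reads and compared the genotypes with DESeq. Their deposited signal values are mean normalized counts per genotype, in 3 tables (alleles summed, 129S5 allele, C57BL/6J allele) that hold the genes past an FDR of 0.05. Each table's overall mean equals the mean weighted by 4 and 3 lines, which fixes the genotype of its columns. The tables also hold fold changes and p-values of the authors, which were not used.

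A further file has 9 value columns without names. They outnumber the lines and could not be matched to them, so their values were not used and its identifiers served as the list of genes tested. The planned limma and permutation tests, the search for genes that vary with Ece1 over lines, and its fallback over the 3 tables, which needs Ece1 in all of them, could therefore not be run. The depth of a line is unknown, and no SD or interval is given.

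Log2 ratios were computed from the means, without a pseudocount. GENCODE on NCBI37/mm9 gave positions and transcript lengths and places 14963 of the tested genes, while start windows are RefSeq's for GRCm38.p6, found in NCBI37/mm9 by exact match. Named genes are the 5 endothelin genes, every listed gene of the lists, the members of pathway lists of up to 6 genes and the listed genes within 1 Mb of Ece1. The rest of the M13 list and unlisted genes given as examples were chosen after the values were seen. So were Angptl7, Dhrs3, Hspb7, Tardbp, Hnrnpr, Dsp, Itgb4, Lama3 and Lamb3. Rere and Ski bracket the deletion as positions in a table of the study place them. Some genes of the lists are not reported here and were left out of their counts. The genes and lists were chosen with earlier results of these data known. Python 3.11.15, numpy 2.4.6, pandas 2.3.3 and matplotlib 3.10.9 were used, and the ratio and window steps were checked on simulated data.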

Additional observations from a re-analysis of the deposited data

How the results depend on the processing

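The log2 ratio of Ece1 was -0.78, against -0.78 with a pseudocount of 10 and -0.77 with 100. Taken relative to the median of all listed genes, 0.61, it was -1.38, since 796 listed genes were higher and 550 lower. With 2 Mb instead of 1 Mb on either side of Ece1, 10 of 58 tested genes (17.2%) were listed in place of 4 of 22 (18.2%), 9 of them lower and Hnrnpr higher (log2 ratio 0.55), and with 0.5 Mb 3 of 14 (21.4%) were, so the count grew with the number of genes tested. Of 35 alternative values, 33 stayed close to the value reported, 2 moved as given here and 0 reversed. Most of the 35 were counts of genes, which have no direction to reverse. A list with no listed gene could not change under the filter on the mean. These figures therefore say little about how firm the results are. Keeping only listed genes with a mean of at least 100 left 4 of the 5 Schwann or neural crest markers. Leaving out single lines was not run, since no value per line was used, nor was a stricter FDR limit, since the p-values of the authors were not used. No paired analysis was possible because the results come from means of genotypes and the lines share no numbers. The depth of the lines is unknown, and the smallest listed log2 ratio by size was 0.70 at means under 500.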
